A study of Mus musculus with 18 samples.

Results

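The genes described here encode the enzymes and adaptors that switch off G protein-coupled receptors: 5 GPCR kinases (Adrbk1, also called Grk2, Adrbk2, also called Grk3, Grk4, Grk5 and Grk6), the 2 β-arrestins (Arrb1 and Arrb2) and the arrestin domain protein Arrdc3. They were chosen by symbol, and these 8 genes are part of 45151 symbols found in all samples. Their RNA was compared between 3 fat depots of the mouse, with 6 samples each: white adipocytes of inguinal fat (iWAT), white adipocytes of epididymal fat (eWAT), and brown adipose tissue (BAT). All samples came from male wild-type C57BL/6J mice that were 16 weeks old and had been fed regular chow. The iWAT and eWAT samples consisted of mature adipocytes that had been released by collagenase at 37 °C and taken from the top layer, and BAT samples were frozen pieces of whole tissue. In every comparison with BAT, depot and preparation therefore cannot be told apart. The labels do not say that samples are from separate animals. Samples are named by the number in their titles, whose meaning the labels do not give, and p-values measure the spread between these samples.

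When an agonist occupies a Gs-coupled receptor such as a β-adrenergic receptor, a GPCR kinase phosphorylates the receptor from the inside of the cell. A β-arrestin then binds the phosphorylated receptor, blocks its contact with the G protein and brings it to clathrin-coated pits, from which it is recycled or degraded. In fat cells this sequence limits how long catecholamines drive cAMP production and lipolysis, and arrestin domain proteins such as Arrdc3 are thought to act with ubiquitin ligases on receptors after they have been internalized.

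Levels are given as RPKM, the reads of an annotation row divided by its length in kilobases and scaled to the reads of the sample. The totals of reads behind them were between 22929576 and 34512470 per sample. Rows stand for whole genes (all exons merged) in the iWAT and BAT samples but for individual transcripts in the eWAT samples, so that depot and kind of row cannot be told apart in any comparison with eWAT. The most-read transcript was used for each member in eWAT, and its length was between 49.8% (Grk4) and 83.1% (Grk5) of that of the merged gene. Differences were tested with edgeR on the reads, with an offset for row length in the comparisons with eWAT. Without that offset, reads were compared as they are, and both values are given for the members wherever the call differs. The offset also moved the genome as a whole: with it, the median log2 difference of eWAT over all genes was 0.60 from BAT and 0.35 from iWAT, compared with 0.15 and -0.04 without it, so that a difference of a member with eWAT has to be read against these medians. Of the genes called between eWAT and iWAT, 87.7% were higher in eWAT with the offset, compared with 41.0% without it, 55.9% with TMM factors taken from all rows and 47.7% with DESeq2. Between eWAT and BAT these shares were 72.7%, 56.4%, 55.3% and 51.2%.

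Marker genes followed the labels. The summed RPKM of 6 brown adipocyte markers was between 2050 and 2640 in the BAT samples, compared with at most 32.5 in iWAT and at most 7.71 in eWAT. The 5 adipocyte markers summed to at least 2860 in each white adipocyte sample, compared with at most 1120 in BAT. Other cell types were present as well. The 6 macrophage markers, none of which was at 0, summed to 27.8 to 144 in iWAT, 143 to 2010 in eWAT and 21.2 to 49 in BAT, with the highest value in the eWAT sample numbered 15 and at most 483 in the other eWAT samples. Markers of the epididymis summed to 89.6 and 80.9 in the eWAT samples numbered 14 and 15, compared with at most 4.1 in the other eWAT samples, 0 in iWAT and at most 0.00864 in BAT. Endothelial markers reached 204 in eWAT (lowest sample 77.7), 135 in iWAT (lowest 23.2) and 80.6 in BAT (lowest 43.1). The sums of fibroblast and preadipocyte markers were highest in iWAT (469 to 745) and lowest in BAT (29.8 to 43.4), with 172 to 263 in eWAT. In iWAT this sum was almost all Dpt (means 614, 143 and 17.1 RPKM in iWAT, eWAT and BAT), and Col1a1 had the same order. Pdgfra had the opposite order (0.154, 0.629 and 1.14 RPKM). Dcn was lowest in iWAT (3.83 RPKM) and highest in eWAT (43.9 RPKM). The sums therefore do not rank the depots by their content of these cells. Mesothelial markers summed to 3.7 to 4.59 in iWAT, 15.3 to 30.3 in eWAT and 11.1 to 13.4 in BAT, and lymphocyte markers to at most 1.19. In iWAT and BAT the mesothelial sum was almost all Lrrn4 (means 4.13 and 12.7 RPKM, and 15.3 RPKM in eWAT). Upk3b, Msln and Krt19 had means of at most 0.0204 RPKM in iWAT and BAT, compared with 3.41, 1.32 and 1.09 RPKM in eWAT. The part of these cell types in the differences between depots was not tested. The skeletal muscle markers (5 genes) reached 1340 in the BAT sample numbered 12, compared with at most 119 in the other BAT samples. Immediate early genes, which respond within minutes to cell stress, summed to 1760 to 2640 in iWAT and 1320 to 2050 in eWAT, but to 15.2 to 103 in BAT.

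One site shows what the files can and cannot resolve for β-arrestin 1. Arrb1 (chromosome 7, plus strand, mm9 106683976 to 106755281) is annotated with and without an alternative exon of 24 bases at chr7:106745546-106745569, by the GENCODE annotation of this build. The exon is printed because the 2 transcripts of the eWAT files differ in length by 24 bases. The letters below run from chr7:106745516-106745599 of the mm9 reference (plus strand, 5′ to 3′), with the exon in capitals and 30 bases of the neighbouring introns in lower case.
Arrb1 alternative exon: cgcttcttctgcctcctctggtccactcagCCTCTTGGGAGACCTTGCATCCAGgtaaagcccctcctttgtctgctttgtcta
The transcript with this exon (16 exons, 7112 bases) and the transcript without it (15 exons, 7088 bases) were listed with equal reads in 6 of 6 eWAT samples, between 2661 and 3411 reads each. The deposited reads per transcript thus do not separate the forms of Arrb1, and their RPKM values differed only through the length of the rows.

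A promoter is shown for Arrdc3, the arrestin-fold member that differed most from BAT. RefSeq promoter entries (GRCm38.p6, 250 bases before to 50 bases after a gene start) matched 4 of the 8 members, namely Grk4, Grk5, Grk6 and Arrdc3, with 8 entries in all. They were searched on both strands for the full cAMP response element TGACGTCA and its core TGACG, since cAMP is the messenger these receptors control. The full element was in none of the 8 entries and in 1.79% of all 32851 promoter entries. The core was in 1 of the entries of Grk4 and Arrdc3 each, compared with 20.8% of all entries. The entry below was chosen because it holds the core, which the other 2 of the 3 Arrdc3 entries lack. Those 2 entries lie upstream of it, from chr13:80883134 and chr13:80883172, and which start was used in these samples was not tested. The chosen entry (chr13:80885845-80886144 of GRCm38.p6, plus strand) is shown with the core in capitals, read as CGTCA on this strand.
Arrdc3 promoter: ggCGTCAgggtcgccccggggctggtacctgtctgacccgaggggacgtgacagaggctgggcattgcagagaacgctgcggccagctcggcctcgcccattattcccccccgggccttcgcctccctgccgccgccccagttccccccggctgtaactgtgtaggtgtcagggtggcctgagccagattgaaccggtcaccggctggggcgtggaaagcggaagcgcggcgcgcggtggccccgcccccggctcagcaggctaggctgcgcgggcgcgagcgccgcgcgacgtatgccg
A match of these letters is a description of the window and not evidence of a binding site.

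All members except Grk4 had a mean of at least 1 RPKM in every depot, that is 7 of 8 members in iWAT, eWAT and BAT. The order of the members differed between white adipocytes and BAT. In iWAT, Arrdc3 was highest with a mean of 15.3 ± 5.66 RPKM (SD, n = 6), above the next gene, Adrbk1, in 6 of 6 samples. Adrbk1, Arrb1, Grk6 and Grk5 followed with means between 7.77 and 5.72 RPKM, and the ranges of neighbours in this order overlapped. Adrbk2 (2.2 RPKM) and Arrb2 (1.74 RPKM) were lower, with ranges that overlapped each other, and Grk4 was lowest. The same order was found in eWAT from Arrdc3 (15.6 ± 4.95 RPKM, SD, n = 6) to Grk4, except that Arrb1 stood above Adrbk1 and Arrb2 above Adrbk2, and only the last 2 steps of the order, from Arrb2 to Adrbk2 and from Adrbk2 to Grk4, were without overlap. In BAT, by contrast, Adrbk2 was the highest member with 12.8 ± 1.43 RPKM (SD, n = 6), above Adrbk1 in 6 of 6 samples, and Arrdc3 was only the sixth.

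**Figure D1:**
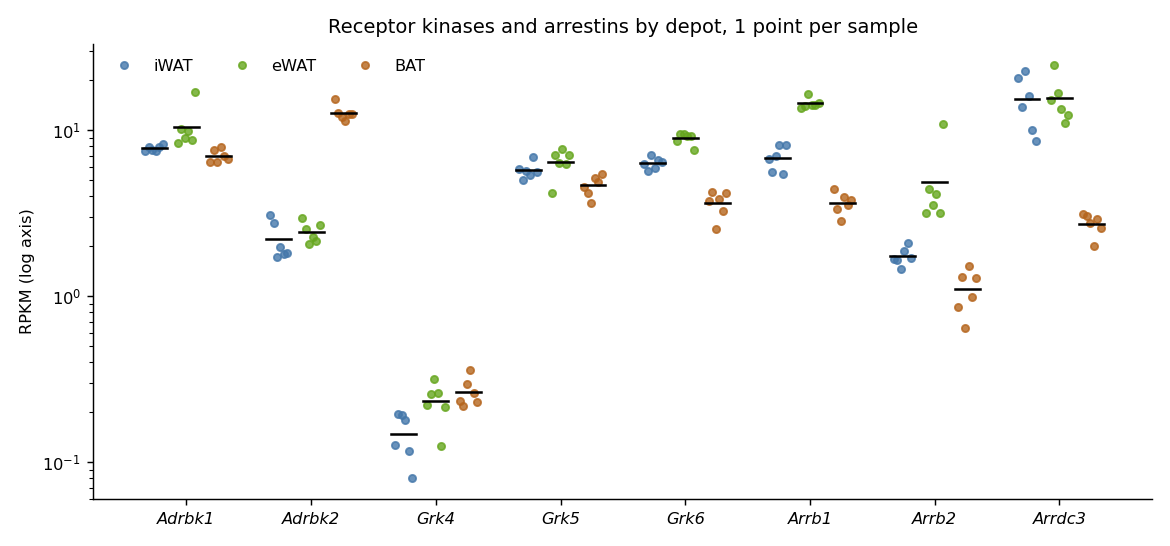
RPKM of each member (log axis) in the 6 iWAT, 6 eWAT and 6 BAT samples, with 1 point per sample and a black line at the mean. Adrbk2 lies between 11.4 and 15.5 RPKM in BAT and at or below 3.09 RPKM in both kinds of white adipocytes, whereas Arrdc3 lies at or below 3.13 RPKM in BAT and at or above 8.66 RPKM elsewhere.

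Between iWAT and BAT, for which the rows are the same, 6 of 8 members passed the threshold, 4 of them higher and 2 lower in iWAT. Among all rows tested 68.4% did so, so this count is close to the background. The RPKM ranges of both depots did not overlap for 5 of 8 members, compared with 48.4% of all genes. The median log2 difference was 0.33 for the members and 0.11 for all genes. The log2 differences of single members ranged from -2.71 (Adrbk2) to 2.30 (Arrdc3), and they are described first for the kinases.

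Adrbk2 encodes GRK3, a kinase that is recruited to the membrane by free Gβγ subunits. It had a lowest, median and highest value of 1.71, 1.9 and 3.09 RPKM in iWAT, 2.06, 2.41 and 2.94 RPKM in eWAT, and 11.4, 12.5 and 15.5 RPKM in BAT. Every BAT sample was thus above every white adipocyte sample, whereas the ranges of iWAT and eWAT overlapped. The level in iWAT was 6.55-fold below that in BAT (log2 difference -2.71, SE 0.18, adjusted p = 9.6e-09). In eWAT it was 6.12-fold below BAT (log2 difference -2.61, SE 0.17, adjusted p = 5.51e-11), and 7.38-fold without the length offset. The difference was past the threshold under all alternatives that were run, with a range of the log2 difference from -2.91 to -2.12 for iWAT and from -3.19 to -2.0 for eWAT. Without the BAT sample numbered 12, which held skeletal muscle RNA, these values were -2.82 and -2.72. Between eWAT and iWAT no difference passed the threshold (log2 difference 0.10, SE 0.16, adjusted p = 0.649). In the eWAT files, between 373 and 650 reads per sample were listed on the full transcript of 21 exons, compared with 9 to 18 reads on a short form of 6 exons. Only these 2 of its 7 transcripts were compared, and their rows may share reads. In bulk samples such as these, fewer cells of a type and less RNA per cell cannot be told apart.

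Adrbk1 encodes GRK2, the close relative of GRK3 that is also recruited by Gβγ and is the best known β-adrenergic receptor kinase. Its values were 7.44, 7.73 and 8.22 RPKM in iWAT (lowest, median and highest), 8.42, 9.47 and 17.0 RPKM in eWAT, and 6.4, 6.86 and 7.86 RPKM in BAT. The iWAT and BAT ranges overlapped, and the difference between them did not pass the threshold (log2 difference -0.02, SE 0.06, adjusted p = 0.811). In eWAT, 1 sample, numbered 15, stood well above the others, which reached at most 10.1 RPKM. Adrbk1 passed the threshold in eWAT against both iWAT (log2 difference 0.40, SE 0.15, adjusted p = 0.0277) and BAT (0.38, SE 0.15, adjusted p = 0.0224), but these values are close to or below the medians of all genes, and they were 0.03 and 0.02 without the length offset (adjusted p = 0.89 and 0.919). Without the eWAT sample numbered 15 they were 0.18 and 0.16 (adjusted p = 0.0224 and 0.0226). The call against BAT was lost without the BAT sample numbered 6, 8, 11, 12 or 13 (0.28 to 0.34, adjusted p between 0.0564 and 0.111), and that against iWAT without the iWAT sample numbered 12 (0.37, adjusted p = 0.0583). The same eWAT sample had the highest macrophage marker sum, 2010 RPKM, and 80.9 RPKM of epididymis markers, and the part of either in the Adrbk1 value was not tested. Without the eWAT samples numbered 14 and 15, which held the epididymis markers, the log2 difference of Adrbk1 was 0.18 against BAT and 0.19 against iWAT (adjusted p = 0.0231 and 0.0266).

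The ratio of Adrbk1 to Adrbk2 does not depend on depth or on scaling factors. It was between 2.4 and 4.5 in iWAT and between 2.87 and 6.36 in eWAT, but between 0.413 and 0.691 in BAT. GRK2 RNA was thus the more abundant of the pair in 6 of 6 iWAT and 6 of 6 eWAT samples and in 0 of 6 BAT samples. Calculated from RPKM + 0.1, the log2 ratio averaged 1.81 ± 0.37 in iWAT and 2.03 ± 0.36 in eWAT, compared with -0.85 ± 0.24 in BAT (SD, n = 6). BAT differed from iWAT by 2.67 and from eWAT by 2.89 (exact permutation test, two-sided, p = 0.00216 for both, the smallest value 6 against 6 samples allow; 0.00649 after adjustment over 9 comparisons). Between eWAT and iWAT it was 0.22 (exact permutation test, adjusted p = 0.434).

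**Figure D2:**
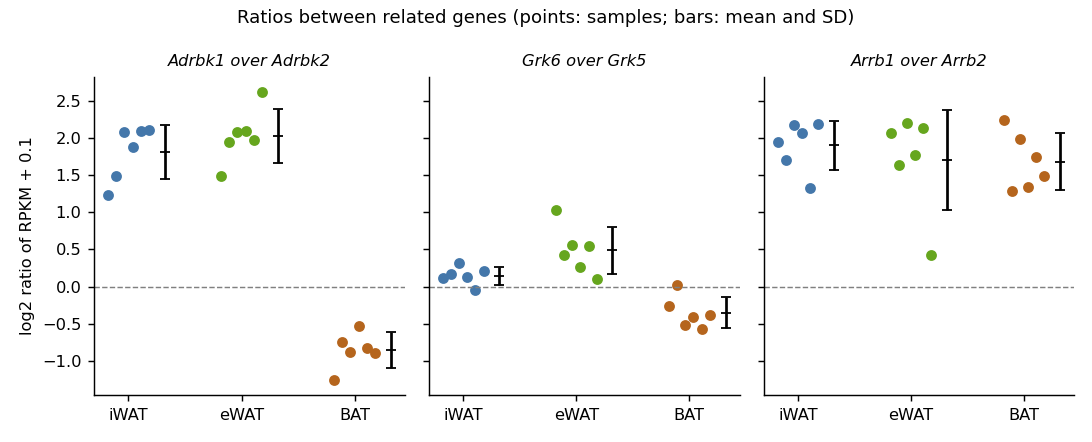
Log2 ratio of RPKM + 0.1 between pairs of related members (y axis) in each depot, with 1 point per sample and the mean and SD beside the points. The Adrbk1 to Adrbk2 ratio is above 0 in all 12 white adipocyte samples and below 0 in all 6 BAT samples, whereas the Arrb1 to Arrb2 ratio is above 0 in all samples, with a wider range in eWAT (0.42 to 2.20) than in iWAT (1.33 to 2.19) and BAT (1.28 to 2.25).

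Grk5 and Grk6 encode kinases of another subfamily, which are held at the membrane by lipids and do not need Gβγ. Grk6 had values of 5.64, 6.38 and 7.05 RPKM in iWAT, 7.59, 9.21 and 9.54 RPKM in eWAT, and 2.53, 3.8 and 4.26 RPKM in BAT. These 3 ranges did not overlap, and eWAT was highest and BAT lowest. It was 1.55-fold higher in iWAT than in BAT (log2 difference 0.63, SE 0.11, adjusted p = 0.000129) and 2.11-fold higher in eWAT than in BAT (1.08, SE 0.10, adjusted p = 8.66e-09), or 1.67-fold without the length offset (adjusted p = 1.9e-06). The difference between eWAT and iWAT depended on the offset, with a log2 difference of 0.45 (SE 0.10, adjusted p = 0.000732) and of 0.11 without it (adjusted p = 0.429).

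Grk5 passed the threshold in none of the 3 comparisons with edgeR as described above. Its values were 4.99, 5.62 and 6.88 RPKM in iWAT, 4.2, 6.69 and 7.67 RPKM in eWAT, and 3.64, 4.7 and 5.48 RPKM in BAT, and all 3 ranges overlapped. The log2 difference of iWAT from BAT was 0.14 (SE 0.11, adjusted p = 0.268). That of eWAT was 0.25 from BAT (SE 0.13, adjusted p = 0.0835) and 0.12 from iWAT (SE 0.13, adjusted p = 0.482). With the eWAT transcript of highest RPKM in place of the most-read one, however, Grk5 was higher in eWAT than in BAT (0.79, adjusted p = 2.3e-05) and iWAT (0.65, adjusted p = 0.000267), and with DESeq2 it was lower (-0.33 and -0.34, adjusted p = 0.0142 and 0.0157). It was also called higher in eWAT than in BAT without the eWAT sample numbered 7 (0.36, adjusted p = 0.00606), which had the lowest eWAT level. With limma it was called higher than in BAT in iWAT (0.30, adjusted p = 0.0212) and in eWAT (0.45, adjusted p = 0.00397), with 0.1 added to the RPKM, and likewise with 1 added (0.25 and 0.39, adjusted p = 0.0214 and 0.00407). No direction is therefore given for Grk5 in the comparisons with eWAT. A gene on the opposite strand, Zfp826, overlaps Grk5 and had 229 to 446 reads in the iWAT and BAT samples. As the library kit did not mark strand, reads of both genes cannot be told apart where they overlap.

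The balance of Grk6 to Grk5 also differed between depots. On the log2 scale it averaged 0.15 ± 0.12 in iWAT and 0.49 ± 0.32 in eWAT, compared with -0.35 ± 0.21 in BAT (SD, n = 6). Grk6 was above Grk5 in 5 of 6 iWAT samples, 6 of 6 eWAT samples and 1 of 6 BAT samples. The difference from BAT was 0.50 for iWAT (exact permutation test, adjusted p = 0.00974) and 0.84 for eWAT (adjusted p = 0.00649 in the same exact test). That between eWAT and iWAT, 0.34 (exact permutation test, adjusted p = 0.0468), was no longer past the threshold when reads were used in place of RPKM (0.28) or when 1 of 9 samples was left out, namely the iWAT samples numbered 7, 11, 13, 14 and 15 and the eWAT samples numbered 7, 8, 11 and 14. The eWAT ratios given here rest on the most-read transcripts, with means of 8.94 RPKM for Grk6 and 6.43 RPKM for Grk5. For the transcripts of highest RPKM these means were 9.59 and 9.29 RPKM, so the balance in eWAT depended on the row used.

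Grk4 encodes a kinase that is best known from testis and kidney, and it was close to the limit of detection. It had 10 to 30 reads per iWAT sample, 8 to 22 per eWAT sample and 33 to 53 per BAT sample. These correspond to 0.0799, 0.153 and 0.194 RPKM in iWAT (lowest, median and highest), 0.125, 0.238 and 0.315 RPKM in eWAT, and 0.217, 0.247 and 0.359 RPKM in BAT, and 3 reads correspond to at most 0.0468 RPKM in any sample. BAT was above iWAT in all samples, and the level in iWAT was 2.01-fold below that in BAT (log2 difference -1.0, SE 0.22, adjusted p = 0.000919). The comparisons with eWAT changed with the length offset. Against BAT the log2 difference was -0.41 (adjusted p = 0.114) with the offset and -1.41 (adjusted p = 2.65e-05) without it, whereas against iWAT it was 0.60 (adjusted p = 0.0409) and -0.40 (adjusted p = 0.23), with opposite sign. The call against iWAT was also lost without the iWAT sample numbered 7, 14 or 15 or the eWAT sample numbered 8, 11, 13 or 15 (0.47 to 0.60, adjusted p between 0.056 and 0.101). The eWAT row of Grk4 covers only 49.8% of the merged gene, the smallest share among the members.

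Together, the 5 kinases summed to 22.2 ± 0.824 RPKM in iWAT, 28.6 ± 3.48 RPKM in eWAT and 28.3 ± 1.88 RPKM in BAT (SD, n = 6). Every iWAT sum (21.0 to 23.3 RPKM) was below every BAT sum (24.9 to 30.4 RPKM). The eWAT sum adds transcript rows and depends on the rows used. For Grk5 alone the eWAT mean was 6.43 RPKM in the row used and 9.29 RPKM in the transcript of highest RPKM. Between iWAT and BAT, the sums differed less than the composition. Adrbk2 made up 45.1% ± 3.94 of the sum in BAT, compared with 9.92% ± 2.66 in iWAT and 8.63% ± 1.71 in eWAT (SD, n = 6). Adrbk1 was the largest share in white adipocytes, with 35.1% in iWAT and 36.3% in eWAT, and made up 24.8% in BAT. Grk6 fell into a range of 10.2% to 14.7% in BAT samples and of 22.0% to 35.4% in white adipocyte samples.

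**Figure D3:**
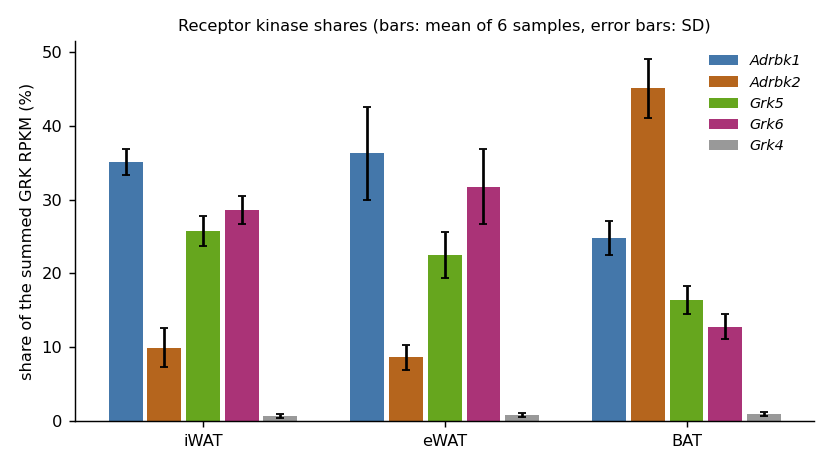
Share of each GPCR kinase in the summed RPKM of the 5 kinases (y axis, percent) in iWAT, eWAT and BAT, as the mean of 6 samples with error bars for the SD. Adrbk2 is the tallest bar in BAT at 45.1%, and Adrbk1 is the tallest in iWAT at 35.1% and in eWAT at 36.3%.

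The β-arrestins followed another pattern, with their highest levels in eWAT. Arrb1, which encodes β-arrestin 1, had values of 5.43, 6.82 and 8.12 RPKM in iWAT, 13.6, 14.2 and 16.6 RPKM in eWAT, and 2.83, 3.66 and 4.45 RPKM in BAT. These 3 ranges did not overlap. Arrb1 was 1.66-fold higher in iWAT than in BAT (log2 difference 0.73, SE 0.13, adjusted p = 0.000145) and 3.41-fold higher in eWAT than in BAT (1.77, SE 0.12, adjusted p = 1.26e-10), or 2.1-fold without the length offset (adjusted p = 2.11e-07). Between eWAT and iWAT it was the only member that was called in the same direction with and without the offset, with a 2.06-fold difference (log2 difference 1.04, SE 0.12, adjusted p = 4.56e-07) and a 1.27-fold difference (0.34, SE 0.12, adjusted p = 0.0388). The eWAT row covers 61.5% of the merged length, and over the 21 annotated transcripts of Arrb1 the mean eWAT level was between 1.1 and 17.3 RPKM.

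Arrb2 encodes β-arrestin 2, the form most often linked to receptor internalization. Its values were 1.46, 1.68 and 2.1 RPKM in iWAT, 3.15, 3.83 and 10.8 RPKM in eWAT, and 0.638, 1.13 and 1.52 RPKM in BAT. The iWAT and BAT ranges overlapped slightly, whereas eWAT was above both in every sample. The difference between iWAT and BAT, 1.43-fold (log2 difference 0.52, SE 0.17, adjusted p = 0.0157), was lost without the BAT sample numbered 6, 8 or 12 (log2 difference 0.38, 0.33 and 0.39, adjusted p = 0.0763, 0.063 and 0.0701) and in a fit of all 18 samples (0.52, adjusted p = 0.122). Against BAT, Arrb2 was 3.91-fold higher in eWAT (log2 difference 1.97, SE 0.29, adjusted p = 5.79e-06) and 2.36-fold without the length offset (adjusted p = 0.000842). Against iWAT the log2 difference was 1.45 (SE 0.29, adjusted p = 0.000288), and 0.72 without the offset (adjusted p = 0.0687).

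One eWAT sample, numbered 15, had 10.8 RPKM of Arrb2, compared with 3.15 to 4.41 RPKM in the other 5. It was also the sample with 2010 RPKM of summed macrophage markers, compared with 143 to 483 RPKM in the others, and it held 80.9 RPKM of epididymis markers. Without it, the log2 difference of Arrb2 was 1.0 against iWAT (adjusted p = 4.27e-05) and 1.52 against BAT (adjusted p = 1.25e-07), and without the eWAT samples numbered 14 and 15 it was 1.04 (adjusted p = 7.7e-05) and 1.56 (adjusted p = 3.34e-07). Macrophage marker sums were also higher in the other eWAT samples than in most iWAT samples (median 38.3 RPKM) and BAT samples (median 26.8 RPKM), and the part of macrophage or epididymis RNA in the Arrb2 levels was not tested.

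Despite these changes in level, the ratio of Arrb1 to Arrb2 showed no difference past the threshold. Arrb1 was above Arrb2 in all 18 samples, and it made up 79.3% ± 4.09, 76.0% ± 9.53 and 77.1% ± 4.96 of the summed β-arrestin RPKM in iWAT, eWAT and BAT (SD, n = 6). The lowest ratio, 1.34, was that of the eWAT sample numbered 15, and the other ratios were between 2.54 and 5.19. Compared with BAT, the mean log2 ratio differed by 0.22 in iWAT and by 0.02 in eWAT (exact permutation test, adjusted p = 0.434 and 0.957). It differed by -0.20 between eWAT and iWAT (exact permutation test, adjusted p = 0.713).

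Arrdc3 belongs to the α-arrestins, relatives of the β-arrestins that carry motifs for ubiquitin ligases of the Nedd4 family, and it has been linked to β-adrenergic receptors in fat. It had values of 8.66, 14.9 and 22.8 RPKM in iWAT, 11, 14.3 and 24.8 RPKM in eWAT, and 1.99, 2.85 and 3.13 RPKM in BAT. Every white adipocyte sample was above every BAT sample, whereas the iWAT and eWAT ranges overlapped widely. Arrdc3 was 4.93-fold higher in iWAT than in BAT (log2 difference 2.30, SE 0.23, adjusted p = 7.18e-07) and 4.82-fold higher in eWAT than in BAT (2.27, SE 0.23, adjusted p = 4.38e-08), or 3.11-fold without the length offset (adjusted p = 3.78e-06). Between eWAT and iWAT the log2 difference was -0.03 (SE 0.22, adjusted p = 0.92), and -0.66 without the offset (adjusted p = 0.034). The immediate early genes differed between the same groups, with a summed level of at least 1320 RPKM in white adipocytes and at most 103 RPKM in BAT, and their part in the Arrdc3 difference was not tested. Within Arrdc3, the opposite-strand gene 1700023H06Rik had at most 19 reads in iWAT and 2 in BAT, compared with at least 389 reads on Arrdc3.

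In the comparison of eWAT with BAT, 6 of 8 members were called, 5 higher and 1 lower in eWAT, against a background of 77.9% of all genes. The ranges did not overlap for 6 of 8 members, compared with 61.8% of all genes, and the median log2 difference was 0.73 for the members and 0.60 for all genes. Between eWAT and iWAT, 5 of 8 members were called, all of them higher in eWAT, against a background of 50.9%. The ranges did not overlap for 4 of 8 members, compared with 32.4% of all genes, and the median was 0.43 for the members and 0.35 for all genes. The number called between eWAT and iWAT was 2 without the length offset, 2 with TMM factors from all rows and 3 with DESeq2.

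**Figure D4:**
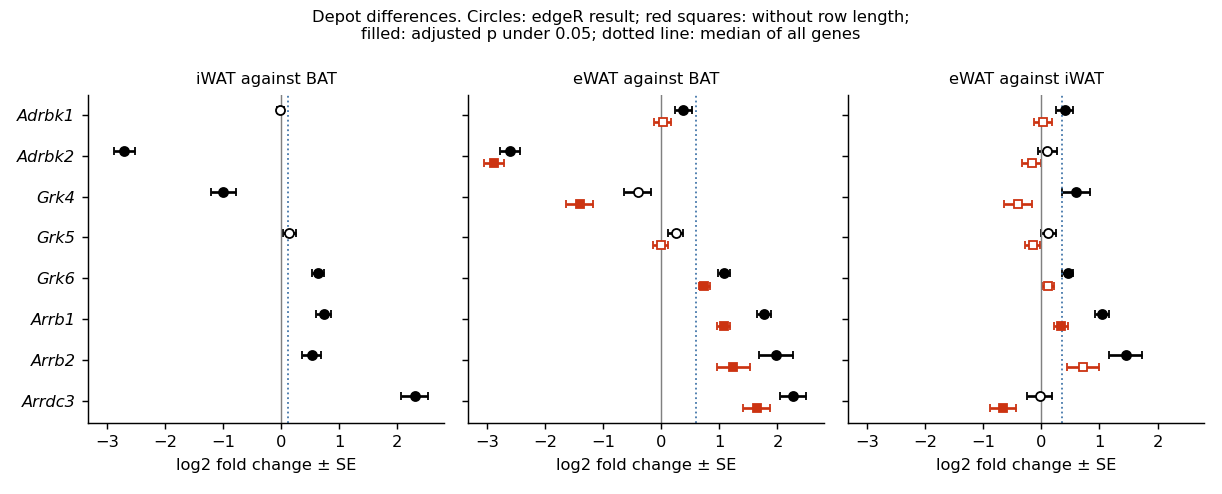
Log2 fold change ± SE of each member in the 3 comparisons (x axis), from edgeR with the length offset where eWAT is compared (black circles) and without it (red squares), with filled symbols for an adjusted p under 0.05 and a dotted line at the median of all genes. Adrbk2 lies below -2.5 and Arrdc3 above 1.6 in both comparisons with BAT, whereas most members lie near the median of all genes or near 0 between eWAT and iWAT.

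The genes with the most similar pattern over the 18 samples were identified from the distance between centred log2(RPKM + 0.1) values. For Adrbk2 (SD over the samples 1.20) they were Coq10a (root mean square difference 0.27 on the log2 scale), with 4.19, 4.8 and 23.4 RPKM in iWAT, eWAT and BAT, and AK080803 (0.28). For Arrdc3 (SD 1.23) they were Plcb1 (0.34), a phospholipase C, and Xbp1 (0.36), a transcription factor of the unfolded protein response, which had 55.4, 61.2 and 11.1 RPKM. Adrbk1 was most similar to Arf6 (0.11), a small GTPase of endocytic traffic, and Shmt2 (0.12). Grk5 was closest to LOC640972 (0.14) and Gnb1 (0.16), which encodes a Gβ subunit. Grk6 was closest to Btrc (0.11) and to Vps26b (0.13), a subunit of the retromer. Arrb1 was closest to Lars (0.15) and Ept1 (0.15), and Arrb2 to Mcm2 (0.19) and Atpif1 (0.21). These patterns include the difference in row kind between eWAT and the other depots.

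The receptors on which these proteins act differed between depots as well. Adrb1, the β1-adrenergic receptor, had 1.31 RPKM in iWAT, 0.644 RPKM in eWAT and 8.28 RPKM in BAT, and was lower in iWAT (log2 difference -2.86, SE 0.24, adjusted p = 1.22e-07) and in eWAT (-3.93, SE 0.28, adjusted p = 2.26e-10) than in BAT. Like Adrbk2, it was thus highest in BAT. Adrb3, the main β-adrenergic receptor of mouse fat cells, had 93.9 RPKM in iWAT and 71.3 RPKM in BAT, a difference that did not pass the threshold (0.23, SE 0.19, adjusted p = 0.31). In eWAT (135 RPKM) Adrb3 was higher than in BAT (0.69, adjusted p = 0.0172), but it was not called higher with TMM factors from all rows or with DESeq2.

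Of 64 genes listed as partners of the receptor kinases and arrestins, 60 could be tested. Between iWAT and BAT, 36 were higher and 6 lower in iWAT (all rows: 38.5% higher and 29.9% lower), with 30 to 43 higher and 5 to 7 lower under other settings. The coat genes formed the largest group of these: 10 of 12 clathrin and AP-2 genes were higher and 1 was lower, with a median log2 difference of 0.56. Under other settings, 8 to 10 of these 12 were higher. Cltb, a clathrin light chain, had the largest increase (1.05, SE 0.11, adjusted p = 1.69e-06), and Epn1, an adaptor of coated pits, fell by 0.27 on the log2 scale (adjusted p = 0.00268). Among the arrestin-fold relatives, 3 of 5 tested genes were higher, including Arrdc2 (1.11, adjusted p = 3.85e-06) and Txnip (0.46, adjusted p = 0.0243), whereas Arrdc4 was not past the threshold (0.32, adjusted p = 0.233). This count was 1 of 5 in the fit of all 18 samples and 2 of 5 with TMM factors from all rows. Nedd4, a ubiquitin ligase that binds arrestin domain proteins, was 2.57-fold higher in iWAT (1.36, SE 0.10, adjusted p = 4.52e-08), as 1 of 3 higher genes among 8 ligases and deubiquitinases. Usp20, a deubiquitinase of β-adrenergic receptors, was lower (-0.50, adjusted p = 0.000472).

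Of the proteins that β-arrestins hold in signalling complexes, 6 of 8 tested were higher in iWAT than in BAT and 1 was lower. Among all rows, 38.5% were higher and 29.9% lower. With DESeq2 or TMM factors from all rows, 5 of these 8 were higher, and with limma 7 of 8. Src, a tyrosine kinase, had 1.49 RPKM in iWAT and 0.219 RPKM in BAT (log2 difference 2.60, SE 0.13, adjusted p = 5.82e-10). The cAMP phosphodiesterase Pde4d was 3.92-fold lower in iWAT (-1.97, SE 0.16, adjusted p = 7e-08), whereas its relative Pde4b was 3.69-fold higher (1.89, SE 0.37, adjusted p = 0.000405). For receptor sorting and recycling, 9 of 14 genes were higher and 0 lower, with Hgs, an endosomal sorting protein, showing the largest difference (0.75, adjusted p = 6.12e-06). The count of higher sorting genes was 7 of 14 in the fit of all 18 samples and with TMM factors from all rows. It was also 7 with DESeq2, where 1 was lower, and 10 with limma. Among GRK regulators, 4 of 10 were higher and 2 lower, so the share higher was close to the 38.5% of all rows. With limma, 7 of these 10 were higher. Cav1, the coat protein of caveolae, which binds GRKs, was 4-fold higher (2.00, SE 0.11, adjusted p = 1.76e-09), with 853 RPKM in iWAT and 189 RPKM in BAT. Pebp1, an inhibitor of GRK2, was lower in iWAT (-0.71, SE 0.09, adjusted p = 8.46e-06), with 12.8 RPKM compared with 18.7 RPKM in BAT. Akap5, a scaffold for protein kinase A at β-adrenergic receptors, was also lower, but its mean level was at most 0.371 RPKM.

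In eWAT, 49 of the 60 partner genes were higher and 3 lower than in BAT (all genes: 56.6% higher and 21.3% lower), and 43 were higher and 2 lower than in iWAT (all genes: 44.7% and 6.28%). These counts rested on the scaling. Without the length offset, 37 were higher and 8 lower than in BAT, and 4 were higher and 7 lower than in iWAT, where the list median fell from 0.67 to 0.05 on the log2 scale. With DESeq2, 25 were higher and 9 lower than in iWAT. Of the 12 coat genes, 12 were higher in eWAT than in iWAT with the offset and 0 without it, so that no direction can be given for this group between the white depots. Pde4b had 14.5 RPKM in eWAT compared with 0.603 RPKM in BAT (log2 difference 4.37, SE 0.42, adjusted p = 1.95e-08), and 2.52 without the offset (adjusted p = 1.4e-05). Src had 3.71 RPKM in eWAT and was higher than in BAT (3.86, SE 0.13, adjusted p = 1.66e-14), and by 3.10 without the offset (adjusted p = 3.8e-13). The largest increases over BAT in 5 other lists were those of Clta, a clathrin light chain (3.37 with the offset and 1.37 without it), Cav1 (2.66 and 2.19), Vps35, a retromer subunit (2.29 and 0.92), Itch, a ubiquitin ligase (2.17 and 0.51), and Arrdc1 (1.32 and 0.77). All of them were called in both ways, with an adjusted p of at most 0.000398 with the offset and at most 0.0223 without it. Between eWAT and iWAT, the largest increases of 5 lists with the offset did not pass the threshold without it. These were Pde4b (2.49 with the offset, and 0.64 with adjusted p = 0.221 without it), Clta (2.38, and 0.38 with adjusted p = 0.0978), Git2, a partner of GRKs (1.81, and 0.02 with adjusted p = 0.939), Itch (1.75, and 0.09 with adjusted p = 0.536) and Vps35 (1.57, and 0.20 with adjusted p = 0.208). Txnip was lower in eWAT than in iWAT both with the offset (-0.57, adjusted p = 0.0246) and without it (-0.81, adjusted p = 0.00656). Pde4d was lower in eWAT than in BAT with the offset (-1.13, adjusted p = 6.33e-06) and without it (-3.1, adjusted p = 2.66e-11). Against iWAT, Pde4d was called higher in eWAT with the offset (0.84, adjusted p = 0.000357) but lower without it (-1.13, adjusted p = 0.000101). The visual kinase Grk1 and the visual arrestin Arr3, the α-arrestin Arrdc5 and the kinase Mapk10 had too few reads to be tested. Sag, another visual arrestin, had a mean of at most 0.103 RPKM in every depot. With the offset it was called higher in eWAT than in BAT (1.15, adjusted p = 0.0186) and iWAT (1.49, adjusted p = 0.00709). Without the offset these values were -1.19 (adjusted p = 0.0148) and -0.85 (adjusted p = 0.148).

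**Figure D5:**
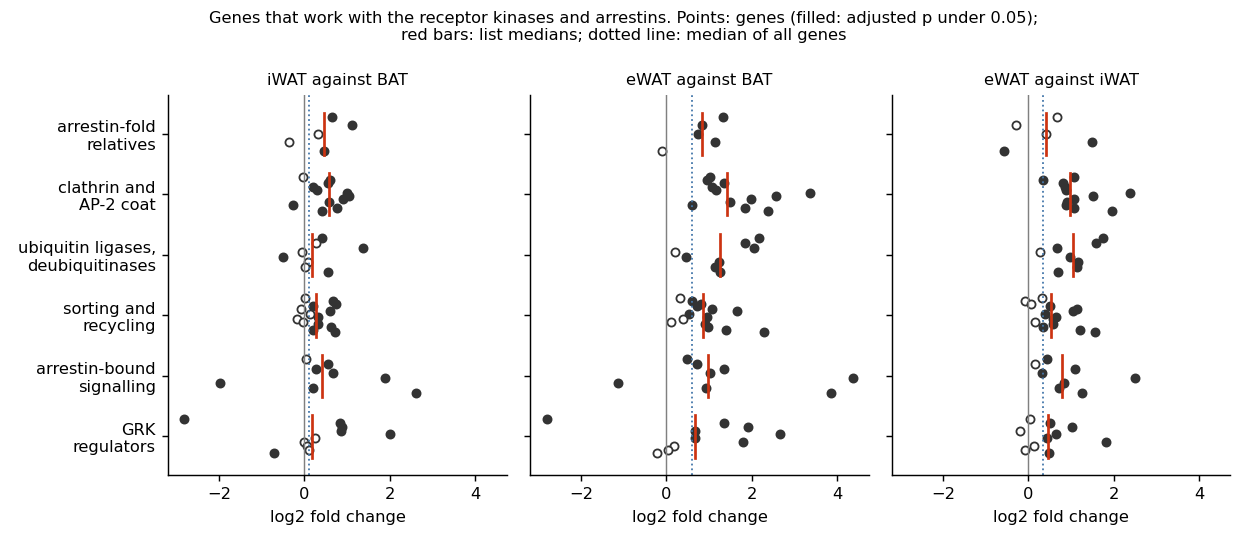
Log2 fold change (x axis) of the tested partner genes by list (receptors not shown) in the 3 comparisons, with 1 point per gene (filled for an adjusted p under 0.05), a red bar at the list median and a dotted line at the median of all genes. The coat genes lie to the right of 0 except Epn1 and Ap2a1 between iWAT and BAT, and Pde4d and Akap5 are the points far to the left in both comparisons with BAT.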

How the data were processed

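Per the study, reads were analysed with the Genomatix Genome Analyzer on mm9, and the submitters' processing notes name cutadapt 1.16 and HISAT2 2.1.0. The counting method is not given in the sources used here. The authors deposited for each row a read count, which is not normalized, and an RPKM, which equals the count divided by row length and scaled by 1 total per sample. There are 53445 merged gene rows (iWAT, BAT) and 189660 transcript rows (eWAT), of which 27301 are the same in both.

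Members and lists were chosen with earlier results of these data known. Rows that reached 10 reads in 6 or more samples were tested with edgeR 4.0.16 (glmQLFit, glmQLFTest; R 4.3.3), with the total behind the RPKM as library size, TMM factors from the shared rows and, for eWAT, an offset of log row length. The iWAT and BAT samples were fitted on their own, and all 18 samples for eWAT. A Benjamini-Hochberg adjusted p under 0.05 over all rows was the threshold. Paralog ratios were compared by exact permutation tests over samples. The code was tested on simulated counts. Alternatives used DESeq2 1.42.0, limma 3.58.1 on log2(RPKM + 0.1) or log2(RPKM + 1), other factors, filters and rows, a block and samples left out.

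All members were named, the 2 most similar genes of each member with at least 1 RPKM, Txnip, Arrdc2, Arrdc4, Adrb1, Adrb3, and the largest change of each partner list in each direction among called genes with at least 1 RPKM. Ap2a1, Akap5, Sag and the genes too low to be tested (Grk1, Arr3, Arrdc5, Mapk10) were named after their values were seen. The same holds for the single fibroblast and mesothelial marker genes. Another gene that the rule names is left out here. Reads carried no molecular identifiers, so that floors of 3 reads cover counting error only.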

Additional observations from a re-analysis of the deposited data

Results flagged for a closer look

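In 4 of 24 groups of 6 samples (8 members in 3 depots), 1 sample stood apart from the others by more than Dixon's critical value for its gap to the nearest sample over the range. Chance alone gives about 1 in 20 such groups. In eWAT, the sample numbered 15 stood apart for Adrbk1, with 17.0 RPKM compared with 8.42 to 10.1 RPKM in the other 5 (gap over range 0.801), and for Arrb2, with 10.8 RPKM compared with 3.15 to 4.41 RPKM (0.836). The macrophage markers of that sample summed to 2010 RPKM and its epididymis markers to 80.9 RPKM, and their part in these values was not tested. In BAT, Adrbk2 was highest in the sample numbered 6, with 15.5 RPKM compared with 11.4 to 12.8 RPKM (0.664). Arrb1 was highest in the eWAT sample numbered 11, with 16.6 RPKM compared with 13.6 to 14.5 RPKM (0.692). The log2 difference of Adrbk2 between iWAT and BAT was -2.72 without the BAT sample numbered 6, and that of Arrb1 between eWAT and iWAT was 1.0 without the eWAT sample numbered 11.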

How the results depend on the processing

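Over all results and alternatives, 794 values kept their direction and side of the threshold (or, for counts, stayed within 1.5 times), 40 lost the threshold, 11 passed it, 34 changed sign and 7 counts moved further. The differences of Adrbk2, Arrdc3, Arrb1 and Grk6 with BAT kept direction and call under every alternative, in iWAT and in eWAT. The number of members called between eWAT and iWAT (5) was 2 without the length offset, 2 with TMM factors from all rows and 3 with DESeq2, and the genes called in this comparison (9366) were 4742 without the offset and 737 over rows the same in both kinds of file, among which fewer rows are tested. Over these rows 3888 genes were called between eWAT and BAT, and no value could be had for the members, as none has such a row. The sign reversed with DESeq2 for Adrbk1 in eWAT against BAT (-0.20) and iWAT (-0.06), for Grk5 against BAT (-0.33) and iWAT (-0.34), and for Grk6 against iWAT (-0.00, adjusted p = 0.984). It also reversed with TMM factors from all rows for Adrbk1 in eWAT against BAT (-0.10) and without the offset for Grk4 in eWAT against iWAT (-0.40) (the cause was not tested). Values that passed the threshold in neither setting also changed sign. Grk5 in eWAT was -0.23 against BAT and -0.25 against iWAT with TMM factors from all rows, and -0.01 and -0.15 without the offset. Adrbk2 in eWAT against iWAT was -0.27 with these factors, -0.17 without the offset and -0.35 with DESeq2. Arrdc3 in eWAT against iWAT was 0.06 and 0.05 with limma (0.1 or 1 added), 0.12 without the eWAT samples numbered 14 and 15, and -0.18 to 0.11 with single samples left out. Adrbk1 in iWAT against BAT was 0.15 and 0.13 with limma and -0.12 to 0.01 with single samples left out. The Arrb1 to Arrb2 ratio was -0.08 to 0.28 (eWAT against BAT; -0.02 from reads) and -0.31 to 0.06 (eWAT against iWAT) with single samples left out. The Grk6 to Grk5 ratio between eWAT and iWAT was 0.23 to 0.42 with single samples left out and 0.28 from reads. Depth limits Grk4, with 8 to 53 reads per sample.

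With the number in the titles as a block, 5, 5 and 3 members were called in iWAT against BAT, eWAT against BAT and eWAT against iWAT. The block ended the calls of Arrb2 in iWAT against BAT (0.26, adjusted p = 0.134), of Adrbk1 in eWAT against BAT (0.22, adjusted p = 0.195) and iWAT (0.34, adjusted p = 0.0549), and of Grk4 in eWAT against iWAT (0.60, adjusted p = 0.0524). It turned the sign of Arrdc3 in eWAT against iWAT (0.01). Samples with the same number deviated from their group means with correlations over genes of -0.0414 to 0.0891, -0.139 to -2.04e-05 and -0.316 to 0.17 in these comparisons. Such correlations between different depots cannot show whether samples with the same number came from the same animal. The tests without the block treated all samples as unpaired.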
